A study of Rattus norvegicus with 6 samples.

Results

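The genes described here are 59 rat genes of DNA replication and mitosis, chosen by name. Of these, 30 act at the passage from G1 into S phase and in copying DNA (G1/S members), and 29 act in mitosis (mitotic members). They were followed in total RNA of renal cortex from male Sprague-Dawley rats of the outbred stock Crl:CD(SD), bought at 5 weeks of age. In the control group, 3 rats were given corn oil, the vehicle, for 4 weeks. In the treated group, 3 rats were given 2,2-bis(bromomethyl)-1,3-propanediol, here BBMP, which carries bromine on both of its bromomethyl arms, for the same 4 weeks at 1000 mg/kg/day. Each rat was measured on its own one-colour Agilent array, and the replicates are biological according to the series' design text. The question was how the compound changed gene expression in this tissue.

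Probes were found for 51 of the 59 members. Mcm5, Top2a, Mki67, Bub1b, Cenpe, Ect2, Anln and Ncapg matched no probe by accession and are not analysed here. A test needed a signal well above background on every array of the control or the BBMP group, and 48 members had it, 27 G1/S and 21 mitotic. Orc1, Aurkb and Pole2 were too dim to be tested. Of the tested members, 45 read well above background on all 6 arrays. The exceptions were Gins2, on 2 of the 3 BBMP arrays, and Cdc6 and Kif2c, each on 2 of the 3 control arrays. Members that passed only through the group in which they were brighter could differ for that reason, so the medians below cover the 45.

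A cell copies its DNA once per division. In G1, the origin recognition complex, Cdc6 and Cdt1 load the MCM helicase onto origins, and Cdc45 and GINS then switch the loaded helicase on. Cyclin D and cyclin E kinases release E2F factors from the retinoblastoma protein, and E2F drives the genes of S phase. Genes of mitosis come on later, under factors that include NF-Y at CCAAT boxes and the MuvB complex at CHR elements. In an adult kidney most tubule cells are out of the cycle, and tubule cells re-enter it after injury. In whole cortex RNA, fewer cycling cells and less RNA per cycling cell cannot be told apart.

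The promoter sequences are shown because they carry the elements by which the G1/S and mitotic genes are commonly told apart. They come from RefSeq on the rat assembly GRCr8, which held a promoter window for 48 of the 59 members. Each stretch is the 150 bases before the annotated start, read in the direction of the gene. Capitals mark 3 motifs, searched on both strands: an E2F motif (TTTCCCGC, TTTCGCGC, TTTGCCGC or TTTGGCGC), the CCAAT box (CCAAT) and the CHR element (TTTGAA or TTCGAA). An E2F motif may overlap another on the opposite strand or a CCAAT box, as it does in Mcm7. The first 2 stretches are G1/S members. Tyms lies at chr9:120776084-120776233 (minus strand) and Mcm7 at chr12:22163179-22163328 (minus strand).
Tyms: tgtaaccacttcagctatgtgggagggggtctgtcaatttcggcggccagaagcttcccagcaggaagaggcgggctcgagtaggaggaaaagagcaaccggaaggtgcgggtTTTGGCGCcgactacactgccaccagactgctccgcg
Mcm7: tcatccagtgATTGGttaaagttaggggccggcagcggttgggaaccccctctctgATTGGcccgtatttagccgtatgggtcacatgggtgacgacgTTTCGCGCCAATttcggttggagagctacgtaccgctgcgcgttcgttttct

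The next 5 stretches are mitotic members. Cdk1, Ccnb2 and Cdc20 hold CCAAT boxes and at least 1 CHR element. Both motifs were found in 10 of the 25 mitotic promoters. Kif11 and Kif15 are shown because these kinesin genes departed from most other mitotic members on the arrays. Kif15 was called and Kif11 was not. Ccna2, whose groups did not overlap, and Kif2c, in the order of the rats, departed in part too. The stretches lie at chr20:19265143-19265292 (plus strand) for Cdk1, chr8:79981659-79981808 (minus strand) for Ccnb2, chr5:137255800-137255949 (minus strand) for Cdc20, chr1:244536717-244536866 (plus strand) for Kif11 and chr8:131479254-131479403 (plus strand) for Kif15.
Cdk1: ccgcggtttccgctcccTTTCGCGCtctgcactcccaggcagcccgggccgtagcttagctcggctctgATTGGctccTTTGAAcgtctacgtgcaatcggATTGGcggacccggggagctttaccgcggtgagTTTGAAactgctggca
Ccnb2: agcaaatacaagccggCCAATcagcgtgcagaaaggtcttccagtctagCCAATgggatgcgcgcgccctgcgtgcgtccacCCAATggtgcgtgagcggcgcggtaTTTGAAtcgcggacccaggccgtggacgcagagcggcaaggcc
Cdc20: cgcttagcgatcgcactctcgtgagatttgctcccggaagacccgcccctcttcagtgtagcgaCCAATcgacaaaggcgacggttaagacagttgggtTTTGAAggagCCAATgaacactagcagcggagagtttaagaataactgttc
Kif11: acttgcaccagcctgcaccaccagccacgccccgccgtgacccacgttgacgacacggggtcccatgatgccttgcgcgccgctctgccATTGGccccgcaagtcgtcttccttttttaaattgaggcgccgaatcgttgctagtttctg
Kif15: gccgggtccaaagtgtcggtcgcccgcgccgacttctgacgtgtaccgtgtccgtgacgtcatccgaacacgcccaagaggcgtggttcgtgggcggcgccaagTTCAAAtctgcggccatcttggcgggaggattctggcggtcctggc

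In the 250 bases before the start, an E2F motif was present in 8 of the 23 G1/S promoters (34.8%) and in 1 of the 25 mitotic promoters (4.0%), that of Cdk1. All 27457 promoters of the same length held one in 1.81% of cases. A CCAAT box was present in 72.0% of the mitotic and 56.5% of the G1/S promoters, against 34.3% of all promoters. A CHR element was present in 52.0% of the mitotic and 21.7% of the G1/S promoters, against 17.3% of all. Both together were present in 10 mitotic promoters (40.0%), against 6.22% of all. Kif15 held 2 CHR elements and 0 CCAAT boxes in its 250 bases. Kif11 held 1 CCAAT box and neither of the CHR forms searched. Neither makeup was particular to these genes. Anln, which had no probe, matched Kif15 in these counts, and Plk1, which was not called, matched Kif11. A link between the motifs and the array values was not tested. These are letter matches in a fixed window and were not tested for binding. Other forms of the motifs were not searched, so elements may have been missed.

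Across the array, 31582 genes or sequences were tested with limma, and 5659 differed between the groups at an adjusted p under 0.05 (called, 17.9%), of which 3232 were higher in BBMP and 2427 lower. The value of a gene, its normalized log2 signal, is log2 of its background-corrected signal over the 75th percentile of its array, and differences are BBMP minus control. Between 67.2% and 72.7% of probes on an array read well above background. All 14 proximal tubule markers read well above background on all 6 arrays, with a summed linear signal of 3484 to 3704 times the 75th percentile in controls and 3441 to 3566 in BBMP. The control arrays lay on 1 slide with 1 scan and the BBMP arrays on another, so the treatment cannot be told apart from the slide or from the scan.

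Of the 48 tested members, 7 were called, or 14.6%, against 17.9% of all genes. Among the G1/S members, 3 rose (Cdc6, Tyms and Rrm1) and 3 fell (Gins2, Dut and Mcm4), which is 22.2% of 27. Over all genes, 10.2% were called higher and 7.68% lower. Among the mitotic members, Kif15 fell and the other 20 were not called, which is 4.76% of 21. The median log2 difference was -0.06 over the G1/S members and 0.02 over the mitotic members above background on all 6 arrays, and 0.03 over all such genes. Groups did not overlap for 16 of 27 G1/S members (59.3%) and for 3 of 21 mitotic members (14.3%), against 43.6% of all genes. The counts of calls and of non-overlap include Cdc6 and Gins2, which passed the filter through their brighter group. When only probes above background on all 6 arrays were tested, 2 G1/S members were called higher and 4 lower, against 11% and 9.01% of all genes. An unadjusted p under 0.05 was reached by 13 G1/S and 2 mitotic members, and by 36.6% of all genes. The plot of differences by member shows both sets on both sides of 0. The range was -0.61 to 0.87 for G1/S and -1.0 to 0.37 for mitotic members. Error bars were mostly longer for the mitotic members.

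**Figure D1:**
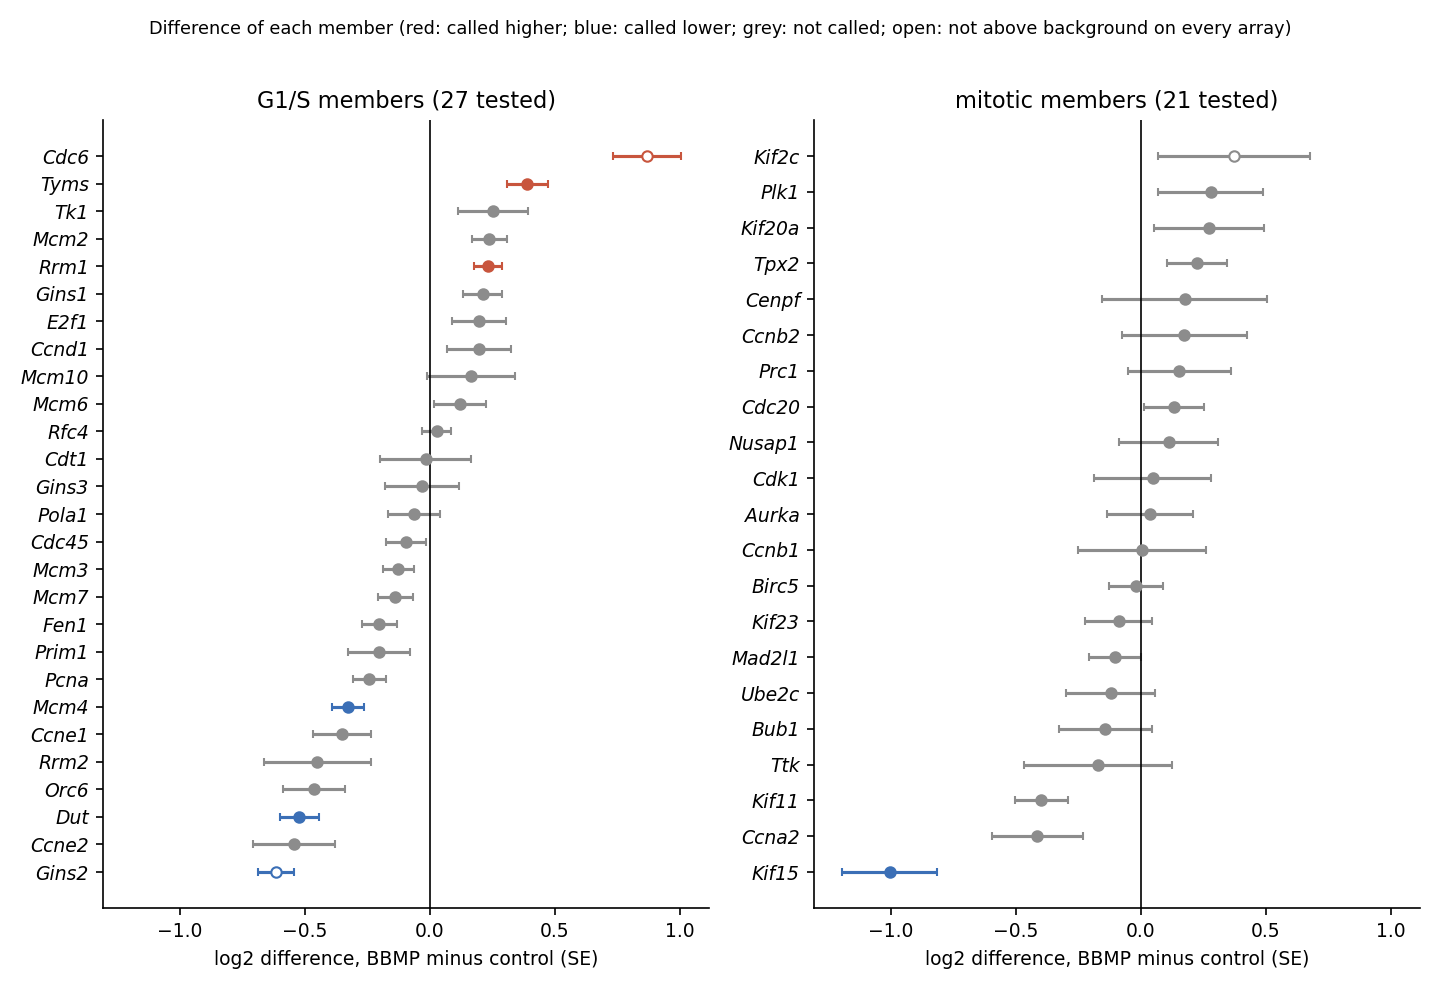
Each point is the log2 difference, BBMP minus control, of 1 of the 48 tested members, with its standard error, by G1/S or mitotic role. Red and blue mark the 3 members called higher and the 4 called lower (limma adjusted p under 0.05, n = 3 against 3), and open points were not above background on every array.

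Among the genes that load the helicase, Cdc6 rose and Mcm4 fell, and the other 6 tested members were not called. Cdc6 is the loading factor that joins the origin complex in G1. Its normalized log2 signal was -5.78, -5.55 and -5.42 in the 3 control rats and -4.81, -4.84 and -4.49 in the 3 BBMP rats. All BBMP values lay above all control values, a 1.83-fold rise (log2 difference 0.87 ± 0.14, SE; limma adjusted p = 0.0172). This is a dim probe that entered the test through BBMP, its brighter group, with 1 control array not well above background. With normexp background correction of the raw signal its difference was -0.02 (limma adjusted p = 0.867). That setting also added an offset of 50 before scaling, which weighs most on dim probes. The parts of background removal and offset were not tested, so the direction depends on the processing.

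Mcm4, a subunit of the helicase itself, read -0.48, -0.46 and -0.57 in controls and -0.78, -0.84 and -0.89 in BBMP. The BBMP values were all lower, and the gene fell 1.26-fold (log2 difference -0.33 ± 0.06, SE; limma adjusted p = 0.0252). Of its other probes, 1 was at 0.46 and 1 at -0.44, neither called, and with the mean of all its probes the difference was -0.10 (limma adjusted p = 0.446).

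The rest of the helicase ring did not move as a unit. Mcm2 was at 0.24 (limma adjusted p = 0.0648), with another of its probes called higher at 0.43 (of all probes, 17.8% were called), while Mcm3 was at -0.13, Mcm6 at 0.12 and Mcm7 at -0.14, none called. Mcm3 was not settled in sign, since its 3 other probes were at 0.03, 0.17 and 0.67. Cdt1, the partner of Cdc6 in loading, was at -0.02. Orc6, a subunit of the origin complex, read -3.74, -3.38 and -3.75 in controls and -4.04, -4.21 and -4.00 in BBMP. Its groups did not overlap, and it was not called (log2 difference -0.46 ± 0.12, SE; limma adjusted p = 0.0535). It was called under normexp, quantile, cyclic loess and median scaling.

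Of the genes that switch the helicase on, Gins2 fell and the other 4 were not called. Gins2 encodes a subunit of GINS. It read -5.45, -5.27 and -5.39 in controls and -5.97, -6.04 and -5.94 in BBMP. The values of BBMP all lay under those of controls, and the fall was 1.53-fold (log2 difference -0.61 ± 0.07, SE; limma adjusted p = 0.0119). Gins2 entered the test through the controls, its brighter group, and 1 BBMP array was not well above background, so the size of the fall is uncertain. With trend and robust moderation it was not called. The other GINS subunits measured were at 0.21 (Gins1) and -0.03 (Gins3), Cdc45 was at -0.10 and Mcm10, which helps the helicase to start, was at 0.16.

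Of the 5 members of nucleotide supply, 2 rose and 1 fell, against 10.2% called higher and 7.68% called lower over all genes. With 5 genes these counts say little about the role as a whole. Tyms, which makes thymidylate, read -0.65, -0.53 and -0.59 in controls and -0.15, -0.34 and -0.12 in BBMP. Every BBMP value lay above the control values, a 1.31-fold rise (log2 difference 0.39 ± 0.08, SE; limma adjusted p = 0.0303). Rrm1, the large subunit of ribonucleotide reductase, read -1.58, -1.58 and -1.54 in controls and -1.28, -1.38 and -1.33 in BBMP. The groups did not overlap, and the rise was 1.18-fold (log2 difference 0.23 ± 0.06, SE; limma adjusted p = 0.0422). Its adjusted p was above 0.05 with quantile, cyclic loess or median scaling. The same held with the mean of all probes, with trend and robust moderation and with no filter on dim probes.

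Dut, the enzyme that breaks down dUTP, went the other way. It read 3.17, 3.23 and 3.05 in controls and 2.53, 2.67 and 2.68 in BBMP. The groups did not overlap, and the fall was 1.44-fold (log2 difference -0.52 ± 0.08, SE; limma adjusted p = 0.0159), while its other probe was at -0.12 and not called. Rrm2, the S-phase small subunit of ribonucleotide reductase, read 0.85, 1.65 and 1.00 in controls and 0.69, 0.63 and 0.82 in BBMP. The groups did not overlap, but control replicate 2 stood well above its group, and the gene was not called (log2 difference -0.45 ± 0.21, SE; limma adjusted p = 0.188). Tk1, which salvages thymidine, was at 0.25 and not called.

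**Figure D2:**
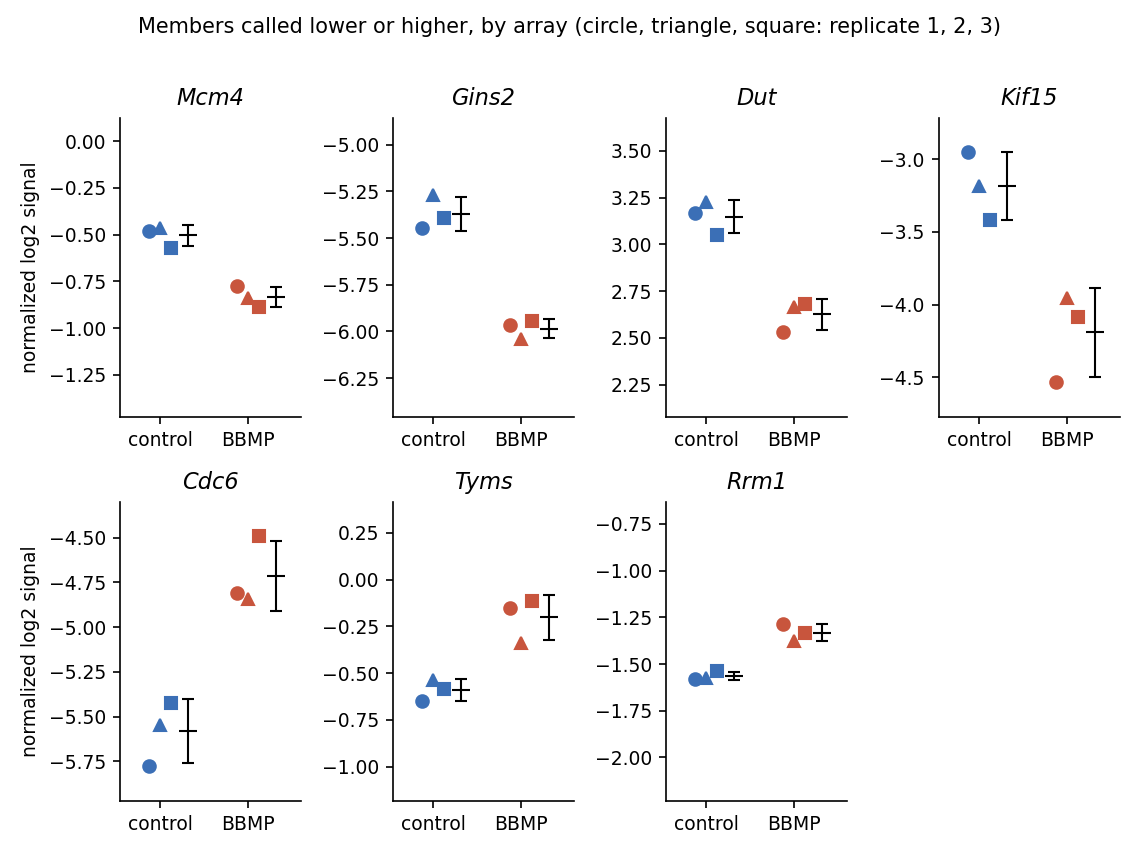
Points are the normalized log2 signal of each of the 3 control and 3 BBMP arrays for the 7 called members, and bars give the mean and SD of each group. In each gene the groups do not overlap, with Cdc6, Tyms and Rrm1 higher and Gins2, Dut, Mcm4 and Kif15 lower in BBMP.

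At the replication fork, limma called 0 of 5 tested members, with 2 at an unadjusted p under 0.05. Pcna, the sliding clamp, read 1.66, 1.57 and 1.5 in controls and 1.37, 1.33 and 1.30 in BBMP. No BBMP value reached the control values, and the difference missed the threshold (log2 difference -0.24 ± 0.07, SE; limma adjusted p = 0.0550). Its other probe was called lower at -0.35. Fen1, the flap nuclease of the lagging strand, read 1.88, 1.97 and 1.8 in controls and 1.65, 1.73 and 1.66 in BBMP. The groups did not overlap and the gene was not called (log2 difference -0.20 ± 0.07, SE; limma adjusted p = 0.0916), and its other probe had the opposite sign at 0.15. Prim1 (primase) was at -0.20, Pola1 (polymerase alpha) at -0.06 and Rfc4 (clamp loader) at 0.03.

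The 4 regulators of the G1/S step were not called either, with 2 at an unadjusted p under 0.05. Ccne1 read -3.68, -3.33 and -3.55 in controls and -3.75, -3.98 and -3.88 in BBMP (log2 difference -0.35 ± 0.11, SE; limma adjusted p = 0.0844). Ccne2 read -4.41, -3.91 and -4.03 in controls and -4.83, -4.71 and -4.45 in BBMP (log2 difference -0.55 ± 0.16, SE; limma adjusted p = 0.0702). For both cyclin E genes the BBMP values lay below the control values, and both were called under normexp, quantile and cyclic loess. Ccnd1, cyclin D1, read 2.45, 2.91 and 2.62 in controls and 2.95, 2.79 and 2.81 in BBMP, with groups that overlapped (limma adjusted p = 0.321). E2f1 was at 0.20 and not called, and 1 of its 2 other probes, a dim one, was called higher at 0.49.

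Among the mitotic members, Kif15 fell, with the largest difference of any member tested. Kif15 is a spindle kinesin that works beside Kif11 to keep the poles apart. It read -2.95, -3.18 and -3.42 in controls and -4.53, -3.95 and -4.09 in BBMP. The highest BBMP value lay below the lowest control value, and the fall was 2.01-fold (log2 difference -1.0 ± 0.19, SE; limma adjusted p = 0.0243). Kif11, the main motor of the bipolar spindle, read 2.5, 2.60 and 2.36 in controls and 1.97, 2.04 and 2.26 in BBMP. Its groups did not overlap, and it was not called (log2 difference -0.40 ± 0.11, SE; limma adjusted p = 0.0531), while its other probe was at -0.07.

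The other spindle genes had groups that overlapped, and none was called. Their log2 differences were 0.37 for Kif2c, a microtubule depolymeriser, 0.27 for Kif20a and -0.09 for Kif23, kinesins of cell division, and 0.15 for Prc1, which bundles the central spindle. Tpx2 and Nusap1, which help microtubules to assemble, were at 0.22 and 0.11. Cenpf, a kinetochore protein, was at 0.17 ± 0.33 (SE).

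Limma called 0 of the 7 tested mitotic kinases, cyclins and partners, with 0 at an unadjusted p under 0.05. Cdk1, the kinase that starts mitosis, read 0.54, 1.04 and 0.23 in controls and 0.41, 0.90 and 0.64 in BBMP. The groups overlapped throughout (log2 difference 0.05 ± 0.23, SE; limma adjusted p = 0.902). Its partner Ccnb1 (cyclin B1) was at 0.00 ± 0.26 and Ccnb2 at 0.17 ± 0.25 (SE). Ccna2 (cyclin A2) read -1.38, -0.84 and -1.46 in controls and -1.73, -1.48 and -1.72 in BBMP. The groups were apart by a narrow margin and the gene was not called (log2 difference -0.41 ± 0.18, SE; limma adjusted p = 0.159). Plk1 and Aurka, kinases of the spindle poles, were at 0.28 and 0.04, and Birc5 (survivin) at -0.02.

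Limma also called 0 of the 5 tested genes of the spindle checkpoint and the anaphase-promoting complex, with 0 at an unadjusted p under 0.05. Cdc20, which activates that complex, read -0.46, -0.17 and -0.55 in controls and -0.32, -0.13 and -0.32 in BBMP. The groups overlapped (log2 difference 0.13 ± 0.12, SE; limma adjusted p = 0.464). The checkpoint genes Bub1, Mad2l1 and Ttk were at -0.14, -0.10 and -0.17, and Ube2c, the ubiquitin-conjugating enzyme of the complex, was at -0.12.

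Most mitotic members differed more between rats of 1 group than between the groups. In 19 of 21 (90.5%), the difference between group means was smaller than the range over the 3 control rats, against 15 of 27 G1/S members (55.6%) and 56.6% of all genes. The median range over the control rats was 0.60 (log2) for mitotic members, 0.29 for G1/S members and 0.23 for all genes. Over the BBMP rats it was 0.38, 0.19 and 0.21. Among all genes in the same range of signal as the mitotic members, the median ranges were 0.24 in controls and 0.22 in BBMP.

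The mitotic genes shared the order of the rats. On control replicate 2, 20 of the 21 were at their highest, the exception being Kif15, and on control replicate 3, 18 were at their lowest. On BBMP replicate 2, 19 were at their highest, the exceptions being Kif11 and Kif2c, and on BBMP replicate 1, 18 were at their lowest. Among all genes, 31.3% were highest on control replicate 2 and 31.0% on BBMP replicate 2. Ttk, a checkpoint kinase, read -2.5, -1.81 and -2.75 in controls and -2.84, -2.13 and -2.60 in BBMP. Ccnb2 read -3.05, -2.52 and -3.21 in controls and -3.13, -2.40 and -2.74 in BBMP. In both genes replicate 2 stood above the others of its group, and the groups overlapped.

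This order is given as a description, with no test. It also appeared in other probes of the same genes, which share the RNA: of 12 other tested probes for 9 mitotic members, 10 were highest on control replicate 2 and 10 on BBMP replicate 2. Among 38 other mitosis genes, 78.9% were highest on control replicate 2 and 47.4% on BBMP replicate 2. The G1/S members shared part of it, with 66.7% highest on control replicate 2 but 33.3% on BBMP replicate 2. Replicate 2 of controls and replicate 2 of BBMP are different rats, and the number links nothing between them. The authors' deposited table rotates the numbers within each group, so a number marks an array here and may not be the authors' own.

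**Figure D3:**
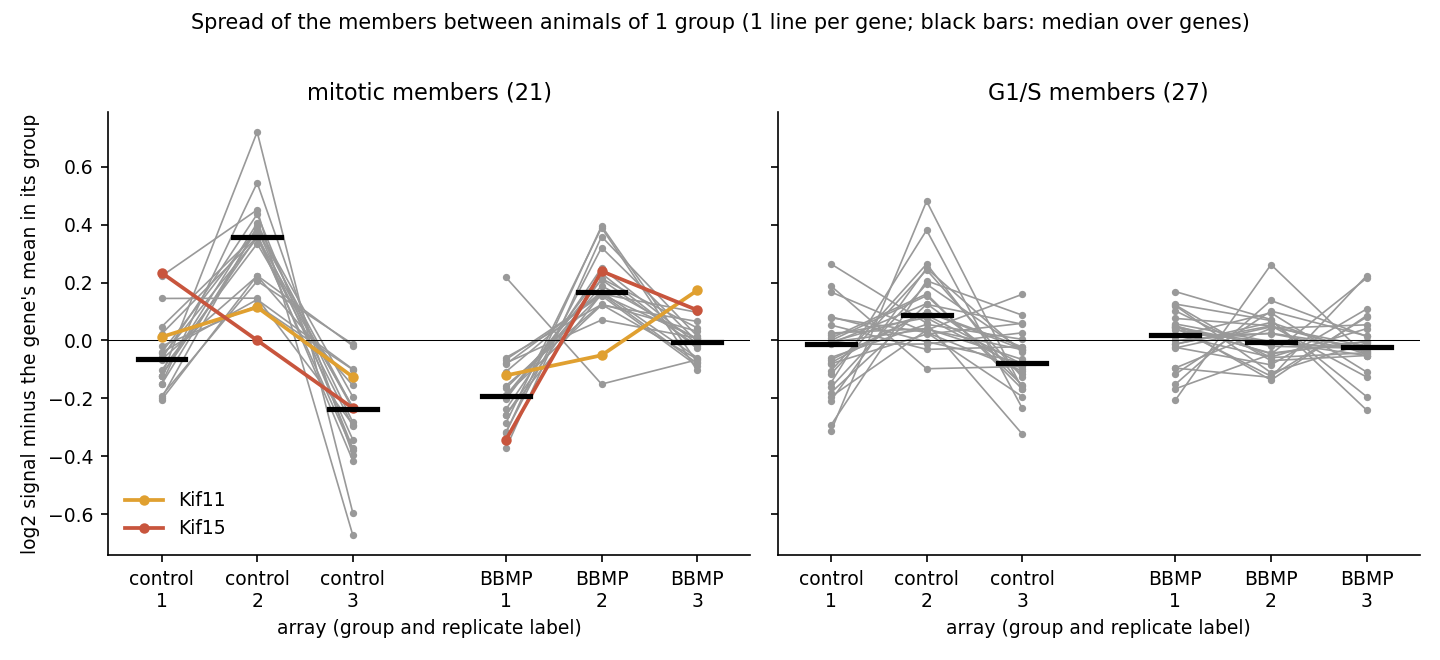
Each line is 1 member, plotted as its log2 signal minus the mean of its group on each of the 3 control and 3 BBMP arrays, for 21 mitotic and 27 G1/S members, with black bars at the median. The mitotic lines peak together on replicate 2 of each group (medians 0.36 and 0.17), with Kif15 off the pattern in controls and Kif11 and Kif2c in BBMP.

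Markers of other cells moved between the same rats. All 7 endothelial markers were highest on control replicate 2, and 1 of 7 on BBMP replicate 2; their summed signal was 31.0 to 39.1 in controls and 30.8 to 32.2 in BBMP. Of 7 erythroid markers, 0 were highest on control replicate 2 and 5 on BBMP replicate 2, with sums of 199.8 to 237.5 and 221.7 to 260.3. Of 11 leukocyte markers, 2 were highest on control replicate 2 and 1 on BBMP replicate 2, with sums of 88.8 to 99.9 and 64.7 to 100.6. Itgam, a further leukocyte marker on the array, was too dim to be tested. Control replicate 3, lowest for 18 mitotic members, was the only control array in row 1 of its slide, which also held the 3 BBMP arrays on theirs. The part of cell mixture and slide row in the order of the rats was not tested.

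The mitotic median depends on which rats are counted. It was 0.02 over all 6 arrays. Leaving out control replicate 2 or 3 gave 0.15 and -0.12, and leaving out BBMP replicate 1 or 2 gave 0.15 and -0.09. Limma called 0 mitotic members higher in each of these, and called Kif15 only without control replicate 3. With slide row as a block the median was 0.26. Row 2 held only control replicates 1 and 2, so that difference rests on control replicate 3 alone against the 3 BBMP arrays.

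The 7 called members kept their sign when any 1 array was left out, but not their calls. Gins2 stayed called except without BBMP replicate 2 (-0.59, limma adjusted p = 0.0530). Cdc6 was lost without control replicate 2 (0.89, limma adjusted p = 0.0530), BBMP replicate 1 (0.92) or BBMP replicate 2 (0.93). Dut was kept without control replicate 3 (-0.57) or BBMP replicate 3 (-0.55) and lost without any other array (-0.54 to -0.48). Mcm4 and Kif15 were kept without control replicate 3 (-0.36 and -1.12) and lost without any other array (-0.36 to -0.30 for Mcm4, -1.12 to -0.83 for Kif15). Tyms (0.35 to 0.46) and Rrm1 (0.21 to 0.26) were lost whichever array was left out. Over the whole array the share of genes called fell from 17.9% to 5.79%, 4.87% and 12.7% when control replicate 1, 2 or 3 was left out, and to 3.09%, 0.0095% and 5.16% for BBMP replicate 1, 2 or 3.

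Of 33 other replication genes tested, 1 was called (3.03%, against 17.9% of all genes). With normexp 8 were called, against 25.4% of all genes. The 1 was Pold1, the catalytic subunit of polymerase delta, which rose. It read -1.04, -0.97 and -1.09 in controls and -0.79, -0.78 and -0.75 in BBMP, with no overlap (log2 difference 0.26 ± 0.06, SE; limma adjusted p = 0.0347). Of 38 other mitosis genes tested, 2 rose and 1 fell (7.89%), and with normexp 9 were called, against 25.4% of all genes. Mad1l1, which brings Mad2 to kinetochores, read -0.72, -0.65 and -0.73 in controls and -0.17, -0.03 and -0.18 in BBMP, with no overlap (log2 difference 0.57 ± 0.07, SE; limma adjusted p = 0.0122). Both of its other probes were called higher too, at 0.66 and 0.86. Cdc25b, a phosphatase that activates Cdk1, was at 0.35 ± 0.08 (SE), and Aspm, a spindle pole protein, fell by 0.41 on the log2 scale (SE 0.08). The medians of these lists were -0.03 and 0.02, near the 0.03 of all genes.

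Genes that gate the cycle were read as a further list, of 29 tested cyclins, kinases, inhibitors and transcription factors outside the member list. Of these, 5 rose and 7 fell, or 41.4%, against 17.9% of all genes. The list was chosen with earlier results of these data known, so its larger share may reflect that choice and is only a description. Cdk2, the cyclin E kinase, fell 1.69-fold, from -0.25, -0.05 and -0.35 in controls to -1.07, -1.10 and -0.76 in BBMP, with no overlap (log2 difference -0.76 ± 0.13, SE; limma adjusted p = 0.0193). Its other probe was at -0.35 and not called. Among the INK4 inhibitors of the cyclin D kinases, Cdkn2c read -1.09, -0.69 and -1.04 in controls and -1.59, -1.44 and -1.67 in BBMP. It fell 1.54-fold (log2 difference -0.62 ± 0.13, SE; limma adjusted p = 0.0289), with no overlap of the groups.

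Cdkn2d, another INK4 gene, was tight within groups: -1.61, -1.64 and -1.68 in controls against -2.12, -2.17 and -2.13 in BBMP. It fell 1.41-fold (log2 difference -0.50 ± 0.05, SE; limma adjusted p = 0.0116). Cdkn2a went the other way, from -4.86, -4.50 and -4.72 to -3.64, -3.99 and -4.17, a 1.69-fold rise without overlap (log2 difference 0.76 ± 0.16, SE; limma adjusted p = 0.0319). It is a dim probe, and with normexp its difference was 0.10 and not called (limma adjusted p = 0.447).

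Without BBMP replicate 2, limma called 0 of these 29 genes, against 0.0095% of all genes, with 17 at an unadjusted p under 0.05. Leaving out control replicate 3, 1 or 2 gave 6, 3 and 1 calls, against 12.7%, 5.79% and 4.87% of all genes. Leaving out BBMP replicate 3 or 1 gave 2 and 1, against 5.16% and 3.09% of all genes. With the mean of all probes limma called 6, against 16.4% of all genes, and with no filter on dim probes 7, against 9.72%.

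Also called were Ccnd3 (cyclin D3, 0.45), E2f3 (0.27) and the repressor E2f7 (0.38), all higher. Lower were Rb1 (-0.37), the retinoblastoma gene, Tfdp1 (-0.38), the partner of E2F, Lin54 (-0.36), which binds the CHR element within MuvB, and Wee1 (-0.45), the kinase that holds Cdk1 inactive. These 7 fell outside the rule for named genes and were named after their values were seen. The other probes of Rb1 and Tfdp1 were not called and had the opposite sign (0.25 and 0.17). Among those not called were Cdk4 (-0.01), Cdk6 (0.22), Cdkn1a (0.19) and Cdkn1b (-0.10).

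**Figure D4:**
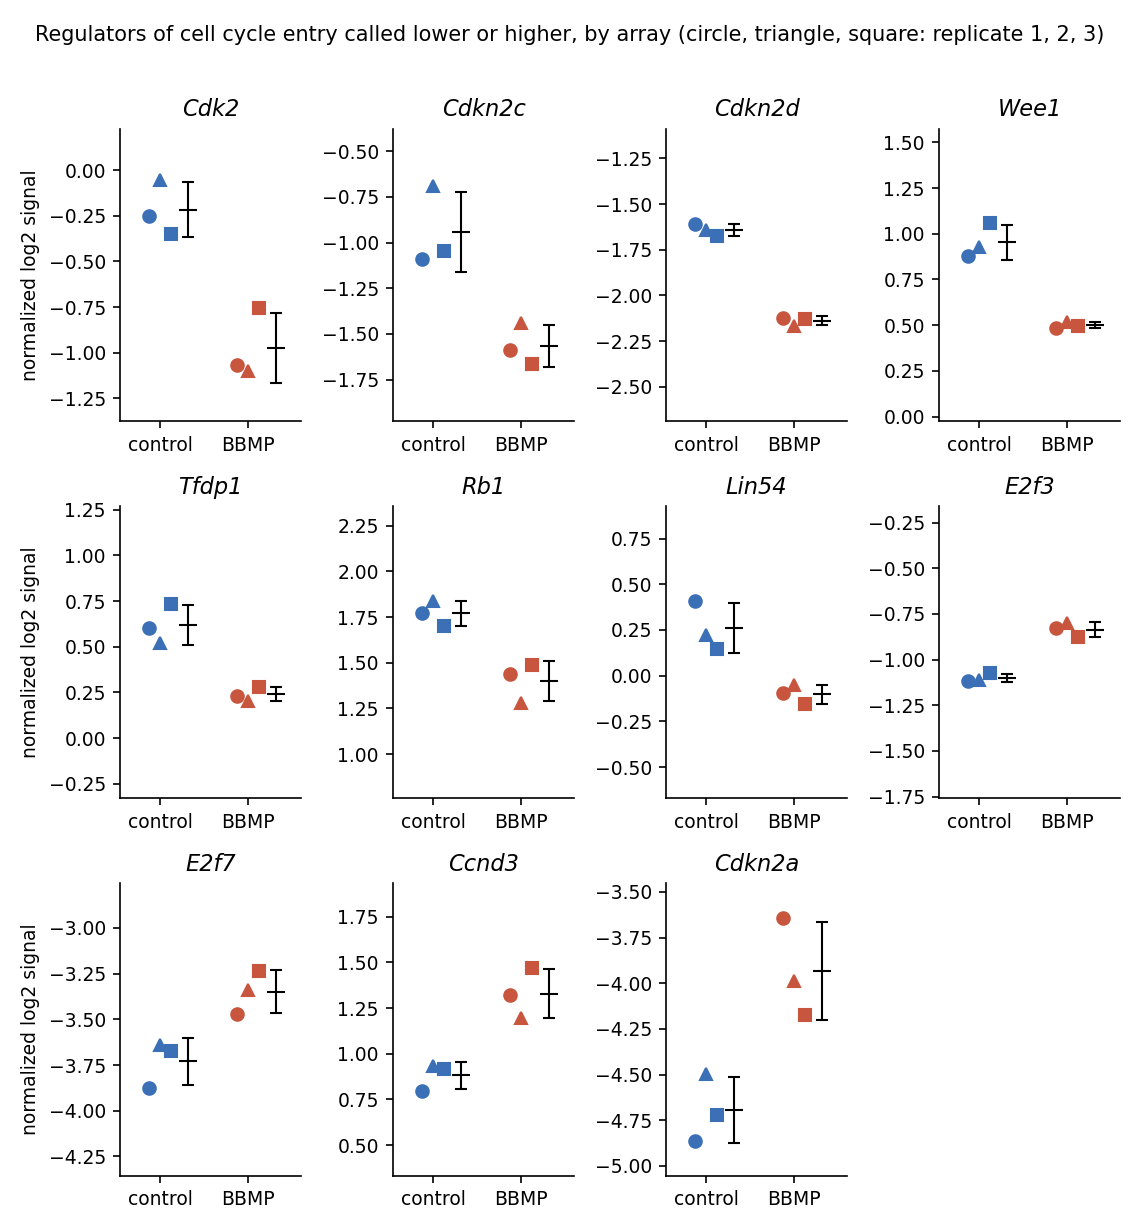
Points are the normalized log2 signal on each of the 3 control (blue) and 3 BBMP (red) arrays for 11 called regulators of the cycle, with replicates 1, 2 and 3 as circle, triangle and square and bars for the mean and SD of each group. The groups do not overlap in any of the 11, with 7 lower and 4 higher in BBMP.

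Markers of tubule injury and repair were read on the same arrays. Of 10 tested, 2 were called higher (20.0%, against 17.9% of all genes), 6 had a difference above 0 and 4 below, and the range was -0.32 to 0.97. The 2 were Havcr1 (Kim-1), an injury marker of the proximal tubule, at 0.77 ± 0.13 (SE; limma adjusted p = 0.0202), which was not well above background on every array, and Vim at 0.31. The summed signal of the 10 was 34.4 to 41.7 in controls and 39.0 to 54.5 in BBMP. Their part in the differences of the cycle genes was not tested. Markers of other cells went both ways within each list. Of 7 endothelial markers, 4 were above 0 and 3 below, with 1 called (14.3%), and of 11 leukocyte markers, 7 were above and 4 below, with 1 called (9.09%). Of 6 podocyte markers, 3 were above and 3 below, with 2 called (33.3%), and of 6 markers of the thick limb and distal tubule, 3 were above and 3 below, with 1 called (16.7%). Limma called 0 of the 14 proximal tubule, 8 collecting duct and 7 erythroid markers, with 3, 0 and 2 at an unadjusted p under 0.05.

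The scaling of the arrays shifted the balance of calls. Of all genes called, 57.1% were higher in BBMP with the 75th percentile, 46.6% with cyclic loess, 48.9% with quantile scaling, 35.9% with median scaling and 36.4% with normexp. Normexp moved the median of all genes from 0.05 to -0.06. The G1/S members called lower numbered 3 with the 75th percentile, 6 with quantile or cyclic loess, 7 with median scaling and 8 with normexp, and those called higher numbered 2 or 3. Of all genes, 8.56% were called lower with quantile, 9.2% with cyclic loess, 11.9% with median scaling and 16.2% with normexp. The share was 8.15% with array weights, 9.65% with trend and robust moderation and 9.01% over genes above background on all 6 arrays, and with no filter on dim probes 4.59% were called higher. The plot of named members under 7 settings shows that, apart from Cdc6 with normexp and Cdk1 with median scaling (-0.03), each kept its sign.

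**Figure D5:**
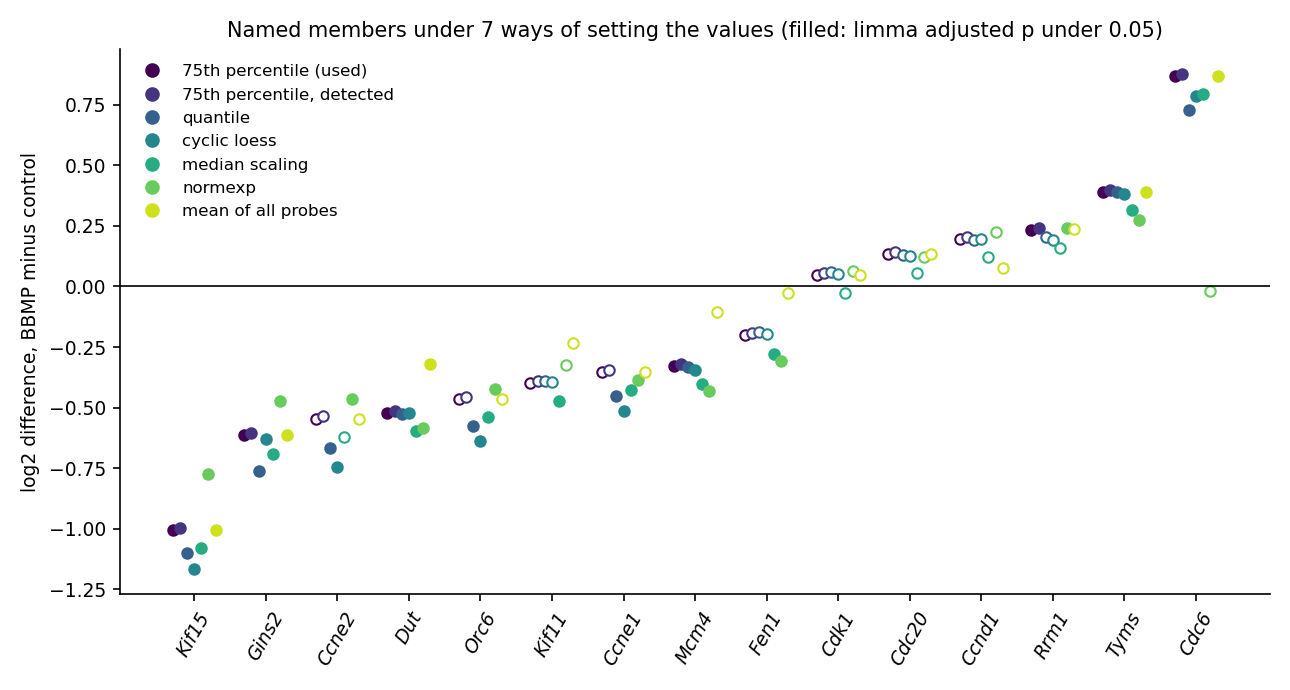
Points are the log2 differences, BBMP minus control, of the 15 named members under 7 ways of setting the values, filled where the limma adjusted p was under 0.05 (n = 3 against 3). Kif15, Gins2 and Dut are below 0 and filled under each setting, and Cdc6 drops from 0.87 to -0.02 with normexp.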

How the data were processed

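Total RNA from renal cortex was labelled with Cy3, per the labels' protocols, and hybridised to 6 one-colour Agilent arrays, 3 control and 3 BBMP. Scans were quantified in Agilent Feature Extraction 10.7.1.1, per the file headers (version 10.7 in the submitters' processing notes). The authors' scanner files give, per the file headers, linear intensity, with background removed in the processed signal, and flags with a score of 0 or 1. The authors' deposited table holds 1 ratio per probe and array. Each of its columns equals the processed signal of a scanner file of the same group over that array's 75th percentile, but of a file given to another replicate. Replicate numbers are therefore uncertain and groups are not.

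Of 61657 non-control probes, 84 ERCC spike-in probes and 10 probes with an outlier flag were left out. Signals were divided by the 75th percentile of their array and put on the log2 scale. The filter left 42657 probes and 31582 genes, 12077 of them named through RefSeq accessions (GRCr8, used for names and promoters, while the array design cites an older build). The brightest probe stood for a gene. Of 23 members with more than 1 tested probe, 8 had a probe of the opposite sign. These were Aurka, Ccnd1, Cenpf, Fen1, Kif2c, Mcm3, Mcm4 and Ttk, so the sign of each depends on the probe. The values of disagreeing probes are given for only some of them. The test was limma's (version 3.58.1, R 4.3.3) moderated two-sided test from lmFit and eBayes, with Benjamini-Hochberg adjustment over all genes, and was first tried on simulated data. Precision is limited by the 3 arrays in each group.

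The members and lists were chosen with earlier results of these data known, so no test over a list is given. The rule for named members took those called, the 3 brightest of each phase and those called under at least 2 scaling or background alternatives. From each list of other cycle genes it took up to 5 called genes with the largest difference. A gene the rule named is not reported here. Alternatives changed the background correction (normexp on the raw median signal, with an offset of 50), the scaling, the filter, the probe, the moderation, the array weights, a block or the arrays used. The use of slide row 1 alone was added after the data were seen. Same-numbered control and BBMP arrays had correlations of -0.12, -0.08 and -0.07 in their deviations, so the numbers were not taken as pairs.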

Additional observations from a re-analysis of the deposited data

How the results depend on the processing

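All 7 called members kept their direction under each alternative other than Cdc6 with normexp (-0.018). With slide row as a block or in slide row 1 alone, the comparison was control replicate 3 against the 3 BBMP arrays. Only its size is therefore given, a median of 0.26 over mitotic and 0.06 over G1/S members in both. With the replicate number as a block, limma called 0 genes of any kind, with 9943 genes at an unadjusted p under 0.05. The numbers do not pair the rats. Called G1/S members lower were 3, against 8 with normexp, 7 with median scaling, 6 with quantile or cyclic loess and 5 with array weights, and 1 was higher with no filter. Called mitotic members lower were 1, against 2 with median scaling, array weights, trend and robust moderation or only probes above background on all arrays. Other replication genes called were 1, against 8 with normexp, 6 with median scaling, 5 with quantile or cyclic loess, 4 with array weights or only probes above background on all arrays, 3 with trend and robust moderation and 0 with no filter, where 16347 genes had an unadjusted p under 0.05. Other mitosis genes called were 3, against 9 with normexp and 5 with trend and robust moderation. The share of all genes called was 25.4% with normexp, 18.5% with median scaling, 16.8% with quantile and 17.2% with cyclic loess. It was 19.2% with array weights, 21.2% with trend and robust moderation and 20% with only probes above background on all arrays. Gate regulators called were 12, against 6 with the mean of all probes and 7 with no filter.

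Leaving out each array in turn gave 3 to 4002 called genes, 0 to 1 G1/S members higher, 0 to 3 lower, 0 to 1 mitotic member lower, 0 to 1 other replication, 0 to 3 other mitosis and 0 to 6 gate regulator genes. The cause of these shifts was not tested. Values from the authors' ratio table, ERCC probes kept or the percentile over detected probes gave the same member counts as the values used. Cdc6, Gins2 and Kif2c were not well above background on every array, so their differences are less certain.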

Other observations

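The 3 members too dim to test gave values on their probes. Aurkb, the chromosomal passenger kinase, read well above background on 1 control and 2 BBMP arrays, and its highest control value was on replicate 2 (-4.69, against -6.26 and -6.28). Orc1 was above background on 1 BBMP array. Pole2, a polymerase epsilon subunit, was above background on 0 arrays, with -5.25, -5.49 and -5.71 in controls and -6.67, -7.13 and -6.75 in BBMP, which are bounds rather than levels.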
